A study of Mus with 4 samples.

Results

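Tbx2, Tbx3, Tbx4 and Tbx5 make up the Tbx2 subfamily of T-box genes, and these 4 genes, chosen by name from 21887 protein-coding genes, were followed through a TBX3 ChIP-Seq track. The chromatin came from primary mouse hepatocytes carrying the transposon construct pT2-SVNeo-EF1-eGFP-P2A-Tbx3-HA, in which an EF1 promoter drives green fluorescent protein and TBX3 with an HA tag. The labels give no age, sex or strain. They list 2 Input libraries, made from sheared chromatin without immunoprecipitation, and 2 TBX3 ChIP libraries, made with an antibody against HA. All 4 libraries came from cells with the construct, so reads from the construct and reads from the chromosomal Tbx3 gene cannot be told apart by comparing cells with and without it. According to the methods, the inserted Tbx3 sequence was amplified from a mouse cDNA, and carrying cells were selected with G418. The cultures were therefore selected cells that overexpressed TBX3.

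T-box proteins share a DNA-binding domain, the T-box, and recognise related DNA motifs. Tbx2 and Tbx3 encode mainly transcriptional repressors, and Tbx4 and Tbx5 encode mainly activators. The genes sit in tandem pairs, Tbx2 beside Tbx4 and Tbx3 beside Tbx5, and they are known for roles in limb, heart, lung and mammary development. Tbx3 is also expressed in the hepatocytes around the central vein of the liver.

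The deposited track holds 1 value per base, the −log10 of a Poisson p-value for the number of ChIP reads over that base against the level expected from Input, and this value is called the score. It covers 2727620324 bases in 110667813 intervals. The track carries no value per library, so no replicate error, no test between genes and no test between groups could be given, and every comparison is a description of 1 track. The depth per library is unknown. The number of ChIP reads over each base (the pileup) and the expected level were inferred from the scores, and a pair of values was found at 99.9987% of all bases and at all bases of the 4 genes. The inferred genome-wide expected level was 2.43 reads.

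Positions are those of RefSeq GRCm38.p6. Tbx2 (gene 21385) lies on chromosome 11 from 85832615 to 85841948, and Tbx4 (gene 21387) follows from 85886367 to 85916097, with 44418 bp between them. Tbx3 (gene 21386) lies on chromosome 5 from 119670534 to 119684724, and Tbx5 (gene 21388) from 119796514 to 119885220, with 111789 bp between them. Exons, introns and strand were not used here, so both ends of each gene were treated alike, and no sequence is printed.

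No region was called at any of the 4 genes or within 50 kb of them, where a called region is a run of bases scoring 5 or more, with breaks of 30 bp or less bridged, that reaches 200 bp. Among all protein-coding genes, 1.43% had a called region in the same window and 0.347% had one in the gene itself. Among the 4, scores of at least 5 were found inside Tbx3 alone, with a highest score of 7.10. Of protein-coding genes, 1.73% had a score as high inside the gene. Tbx3 held 7 short blocks where Input itself was high. In these blocks the mean pileup was 17.7 reads against an expected level of 12.4, whereas the mean pileup was 1.42 reads in the parts of Tbx3 over 150 bp from a block. Tbx2, Tbx4 and Tbx5 had mean pileups of 1.49, 1.61 and 1.48 reads, below their expected levels of 2.85, 2.95 and 2.76 reads. Over its whole length Tbx3 also lay below, at 4.39 against 4.90 reads, as did the medians over all protein-coding genes, 1.69 and 2.78 reads. The expected level is the highest of several estimates and never falls under the genome-wide 2.43 reads. A mean pileup below it is therefore partly fixed by its definition.

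At the gene ends, where promoters lie, none of the 4 genes had a score above the median of all genes. The end score, the highest score within 1 kb of either gene end, was 2.44 at Tbx2, 1.64 at Tbx3, 1.90 at Tbx4 and 2.44 at Tbx5. The median of all protein-coding genes was 2.44. A score as high was found at 50.5% of protein-coding genes for Tbx2 and Tbx5 (95% Wilson interval 49.8 to 51.2%), at 74.5% for Tbx4 (73.9 to 75.1%) and at 78.1% for Tbx3 (77.5 to 78.6%). These intervals cover counting only. With windows of 2 kb the Tbx3 value rose to 7.10, since they take in the last of the blocks described below for that gene, and the values of the other 3 genes stayed the same. For scale, E2f7 and E2f8, the cell cycle repressors that the study examined as TBX3 targets, had end scores of 22.79 and 15.53.

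Tbx2 had 0.641 at its low-coordinate end and 2.44 at its high-coordinate end, and Tbx5 had 2.44 at the low end and 0.999 at the high end. Tbx4 had 1.90 at the low end and 1.42 at the high end. The ends of Tbx3 were alike in score, 1.42 and 1.64, and its highest pileups there were 5 and 6 reads. At the low and high ends of Tbx3, 45.4% and 87.0% of bases took their expected level from the 10000 bp Input window, compared with 0% at both ends of Tbx2, Tbx4 and Tbx5.

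**Figure D1:**
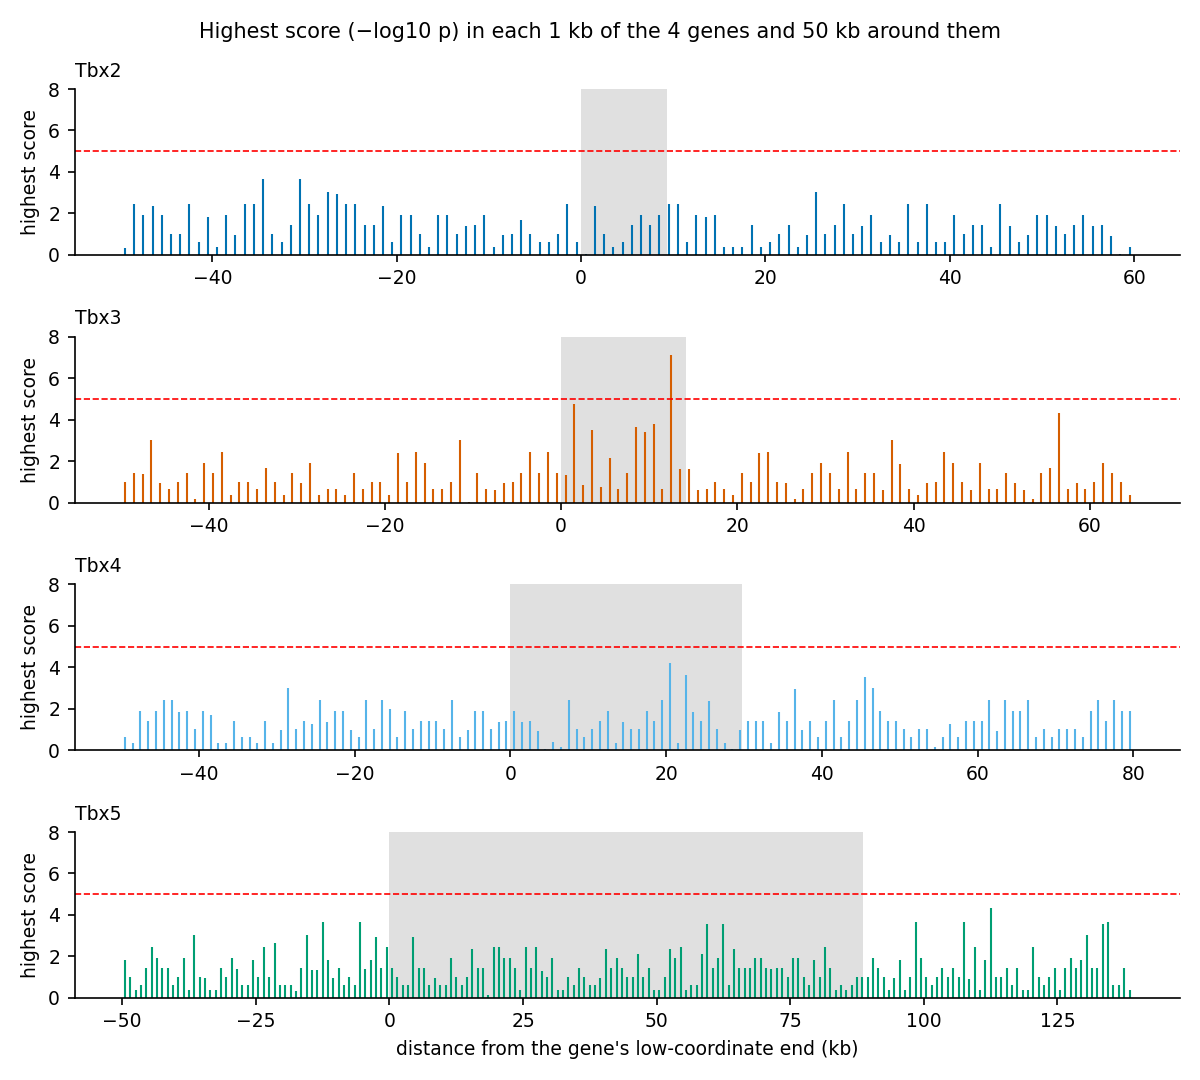
Highest score (−log10 p, vertical axis) in each 1 kb of Tbx2, Tbx3, Tbx4 and Tbx5 and the 50 kb on either side, by distance from the gene's low-coordinate end in kb. Shading marks the gene and the dashed line the cutoff of 5, which only Tbx3 passed. Its highest score was 7.10 (4.14 with read counts divided by 2, as for pairs), against 2.44, 4.20 and 3.55 inside Tbx2, Tbx4 and Tbx5. The horizontal scales differ between panels.

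Within the gene and 50 kb around it, the highest score was 3.65 for Tbx2, 7.10 for Tbx3, 4.20 for Tbx4 and 4.31 for Tbx5. Of protein-coding genes, 92.4%, 6.82%, 77.3% and 73.2% had a value as high in their own window. Longer windows hold more bases, and the Tbx5 window was the longest at 188707 bp. The plot of highest scores per 1 kb shows scattered low bars over Tbx2, Tbx4 and Tbx5 and a group of higher bars inside the Tbx3 gene.

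A summit is the highest base of a run scoring 3 or more, joined over the same gaps. Tbx3 and its flanks held 14 summits, of which 10 lay inside the gene. Of these 10, 8 were inside blocks, and the other 2 lay within 150 bp of one. Over 150 bp from a block the score inside Tbx3 did not pass 2.15. Tbx5 and its flanks held 12 summits, or 6.36 per 100 kb, compared with 12.3 per 100 kb at Tbx3, 3.85 at Tbx4 and 3.66 at Tbx2. Summits were not counted over all genes, so these densities have no background.

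Inside Tbx5 there were 2 summits, both at 3.55 with 9 reads against 2.50 expected, at chr5:119855544 and chr5:119858654. Inside Tbx4 there were also 2, at chr11:85906817 with 10 reads and a score of 4.20, and at chr11:85909019 with 9 reads and a score of 3.65. Tbx2 had 0 inside the gene. An in-gene score as high as the highest of Tbx2, Tbx4 and Tbx5 was found in 76.4%, 29.3% and 47.0% of protein-coding genes. Outside the genes every summit rested on 8 to 10 reads. The summit at chr11:85858173, between Tbx2 and Tbx4, is counted in the flanks of both genes.

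At Tbx2 and Tbx5 the highest scores lay outside the gene. The highest score of the Tbx2 locus, 3.65, lay 30607 and 34325 bp outside the gene, inside Bcas3 and the long noncoding RNA gene 2610027K06Rik. In the Tbx5 locus the highest score, 4.31, lay 23413 bp beyond the high end, where no annotated gene overlapped it. A summit of the same score lay 42668 bp beyond the high end of Tbx3, between Tbx3 and Tbx5. Each of these 2 summits had 10 reads against 2.43 expected.

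The expected level separated Tbx3 from the other 3 genes. A base was called raised where its expected level reached 3 times the genome-wide one, and raised bases were joined into blocks over gaps of up to 30 bp. Tbx3 had 2284 raised bases in 7 blocks, 16.1% of the gene. Tbx2 had 58 raised bases in 3 blocks, Tbx4 had 219 in 7 blocks and Tbx5 had 202 in 3 blocks, which is 0.621%, 0.737% and 0.228% of these genes. Any raised base was found in 60.9% of protein-coding genes, at least 3 blocks in 35.4% and at least 7 in 17.8%. The number of blocks did not separate Tbx3 from Tbx4. A raised share as high as that of Tbx2, Tbx4 and Tbx5 was found in 18.9%, 15.3% and 41.4% of protein-coding genes. One as high as that of Tbx3 was found in 78 protein-coding genes, or 0.356%.

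The blocks of the paralogues were small and lay just over the threshold. In Tbx2 they were 10 to 30 bp long, in Tbx4 2 to 115 bp and in Tbx5 38 to 100 bp, with at most 11 Input reads over any base. No base in them had more than 5 ChIP reads. At 4 times the genome-wide level no raised base was left in any of these 3 genes, while 16.3% of protein-coding genes had one. In Tbx3 the Input reached 23 reads over a base, and the highest expected level in the blocks was 7.89 times the genome-wide level.

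**Figure D2:**
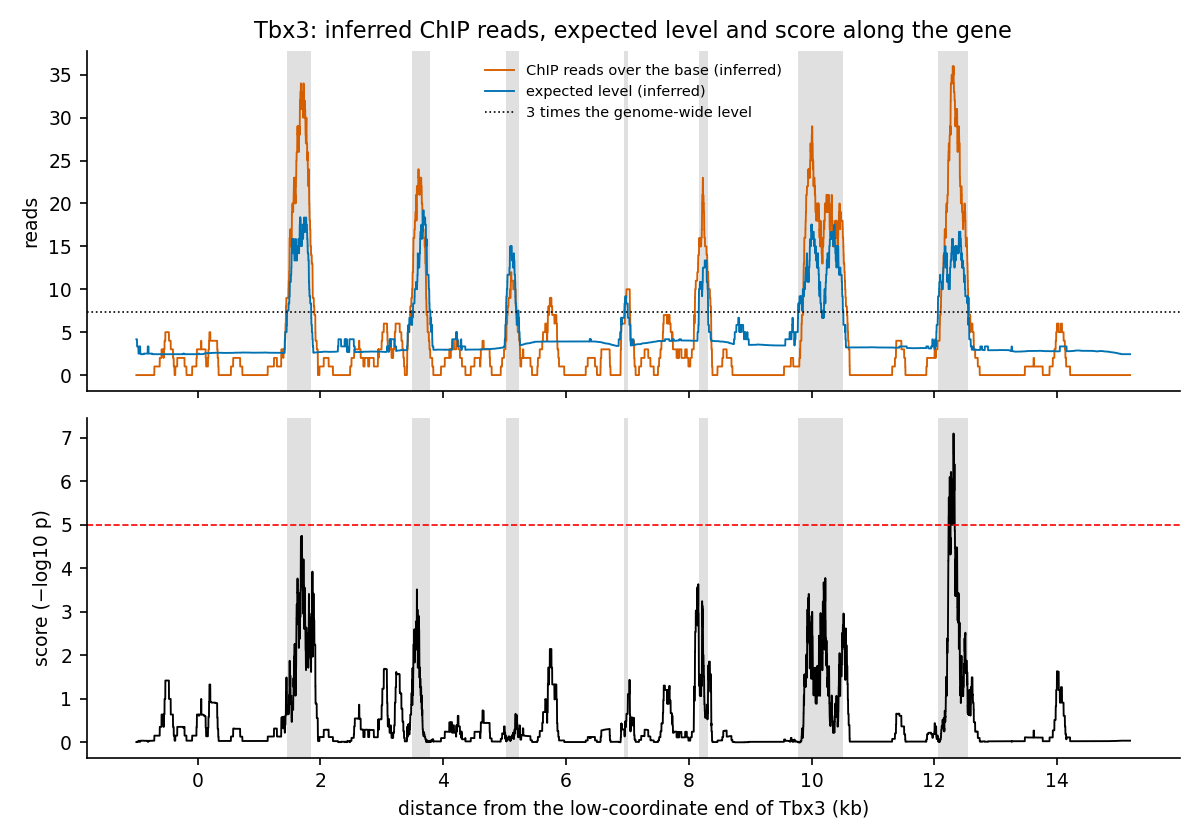
Inferred ChIP reads and expected level (upper panel, reads) and score (lower panel, −log10 p) along Tbx3, by distance from its low-coordinate end in kb. Grey bands are the 7 blocks, the dotted line is 3 times the genome-wide level and the dashed line is the cutoff of 5. ChIP reads and the expected level rise together in the blocks, and the score passes 5 only in the last block.

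The 7 Tbx3 blocks spanned 11096 bp of the gene and left its outermost 1455 and 1640 bp free. Their lengths summed to 2335 bp and neighbouring blocks were 1155 to 1722 bp apart. From the low-coordinate end, block 1 ran over chr5:119671989-119672383 and was 395 bp long, block 2 over chr5:119674030-119674324 (295 bp) and block 3 over chr5:119675558-119675761 (204 bp). Block 4 was the shortest, 58 bp at chr5:119677484-119677541, and block 5 covered 153 bp at chr5:119678697-119678849. Block 6 was the longest, 738 bp at chr5:119680315-119681052, and block 7 covered 492 bp at chr5:119682593-119683084. Block edges are those of the extended Input reads and need not be those of the DNA that gave them.

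The mean expected level lay within a narrow range in 6 of the blocks and was lowest in the shortest one. It was 13.8 reads in block 1, 13.0 in block 2, 11.1 in block 3, 8.32 in block 4, 11.4 in block 5, 12.3 in block 6 and 12.5 in block 7. The coefficient of variation over the blocks was 15.1%, and the threshold for raised bases limits how low these means can be. Relative to the genome-wide level these means were 3.42 to 5.68 times as high. All bases of the blocks took their expected level from Input reads over the base itself, extended to 150 bp.

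The ChIP pileup, to which no threshold was applied, varied more than the Input level. Its mean was 23.2 reads in block 1, 15.2 in block 2, 8.57 in block 3, 8.78 in block 4, 16.1 in block 5, 17.2 in block 6 and 20.7 in block 7. Blocks 1 and 7, at either side of the gene, had the highest means and reached 34 and 36 reads over a base. Blocks 3 and 4, in the middle, had the lowest, with at most 12 and 10 reads.

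The ratio of the pileup to the expected level was 1.43 over all blocks (95% counting interval 1.19 to 1.71), from about 275 ChIP and 231 Input reads. It was above 1 in 6 of the 7 blocks. The interval lay above 1 in block 1 (ratio 1.68, 1.11 to 2.51), block 6 (1.40, 1.02 to 1.96) and block 7 (1.66, 1.13 to 2.45). In block 2 (1.17), block 3 (0.771), block 4 (1.05) and block 5 (1.42) it held 1. If read counts were divided by 2, as for pairs, the interval over all blocks widened to 1.11 to 1.84, and none of the 7 intervals lay above 1. The intervals cover counting error only and treat reads as independent.

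**Figure D3:**
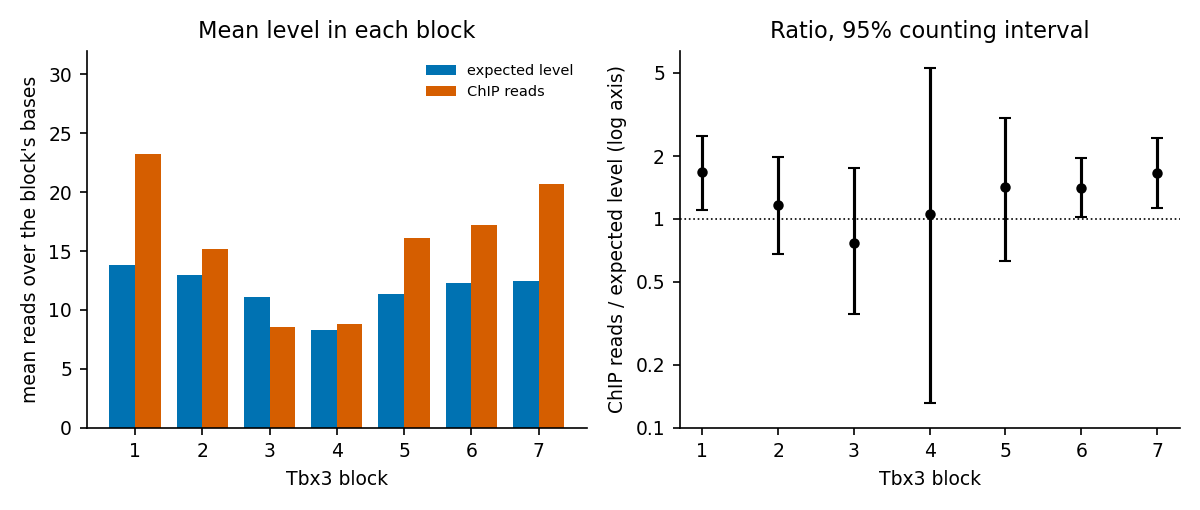
Mean expected level and mean ChIP reads over the bases of each Tbx3 block (left, bars, reads) and their ratio on a log axis with 95% counting intervals (right), for blocks 1 to 7 from the low-coordinate end. The ratio lies between 0.771 and 1.68, and the intervals of blocks 1, 6 and 7 lie above 1.

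Scores of at least 5 were found at 91 bases of Tbx3, all of them in block 7. They formed runs of 11, 11 and 69 bp, so the 200 bp minimum for a called region was not met. With a minimum of 100 bp these runs, joined, made up 1 called region at Tbx3, and 5.55% of protein-coding genes had any in their window. With a score cutoff of 3 none of the 4 genes had one, compared with 6.57% of all. The summit, 7.10 at chr5:119682848, had 36 reads against 13.4 expected, 2.69 times as many. With read counts and expected levels divided by 2, as if each read pair were counted once, the highest score of Tbx3 fell to 4.14, under the cutoff. The highest scores of the other blocks were 4.74 in block 1, 3.52 in block 2, 0.657 in block 3, 0.857 in block 4, 3.25 in block 5 and 3.78 in block 6. At E2f7 and E2f8, by contrast, regions were called.

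Outside the blocks the levels of Tbx3 lay near those around it. The mean pileup over 150 bp from a block was 1.42 reads, compared with 1.34 and 1.39 reads in the 50 kb below and above the gene and with 1.48 to 1.61 in the other 3 genes. The median over protein-coding genes was 1.73 reads on chromosome 5 (quartiles 1.56 to 1.91) and 1.75 on chromosome 11 (1.56 to 1.92). In these parts of Tbx3, 45.5% of bases had no ChIP read, and 0% had none in the blocks. The mean pileup in the blocks was 12.4 times as high. Within 150 bp of a block it was 3.37 reads, where reads of the blocks extend.

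The expected level of Tbx3 outside the blocks lay above the genome-wide one, which bears on the scores there, although no base there met the threshold for a raised base. Over 150 bp from a block it averaged 3.30 reads, and 84.8% of these bases took it from the 10000 bp Input window, which takes in the reads of the blocks. None of the bases of Tbx2, Tbx4 or Tbx5 took it from that window. Of the Tbx3 bases, 99.5% had an expected level higher than the genome-wide one, compared with 34.2 to 42.6% of the bases of the other genes. A pileup of 9 reads scored 3.65 against the genome-wide level in the paralogues, whereas the highest pileup of 9 reads in these parts of Tbx3 went with scores of at most 2.15.

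Whether the blocks lie on the exons of Tbx3 was not tested, because no exons were used here. The part of the construct's Tbx3 sequence in the Input and ChIP reads of the blocks was not tested either. The blocks were picked for a raised Input level, so a raised Input there is part of their definition. Their mean expected levels were 3.42 to 5.68 times the genome-wide level in Tbx3. Those inside Tbx2, Tbx4 and Tbx5 reached at most 3.27 times that level.

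Short raised blocks, all with fewer ChIP reads than expected, were also found in the 50 kb flanks, except for the high-coordinate flank of Tbx2, which had 0. Blocks are picked for a high expected level, so a pileup below it is partly fixed by that choice. The 3 in the low-coordinate flank of Tbx4 are the 3 blocks inside Tbx2. The highest lay on the low-coordinate side of Tbx5, 150 bp at chr5:119791909-119792058, where the expected level averaged 3.69 times and reached 4.80 times the genome-wide level, with a mean pileup of 0.987 reads. The high-coordinate flank of Tbx3 held 327 raised bases in 7 blocks of at most 150 bp, which reached 4.46 times that level, and that of Tbx4 held 440 in 12 blocks, which reached 3.77 times. Over all flanks the highest ratio of pileup to expected level in a block was 0.883, in the low-coordinate flank of Tbx2.

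Among genes with at least 2000 raised bases, Tbx3 had a high ratio. Raised bases are picked for a high expected level, by which the ratio divides, so low ratios are partly fixed by that choice. A minimum count of raised bases also favours long genes. Of 397 protein-coding genes with at least 2000 raised bases, the median ratio of pileup to expected level on raised bases was 0.385 (quartiles 0.326 to 0.469), and at Tbx3 it was 1.42. The median expected level on raised bases was 8.18 reads over the 397 genes and 12.5 at Tbx3. In the 35 other genes with a level as high as that of Tbx3, several of which overlap, the median ratio was 0.886 and the range 0.294 to 1.12. A ratio of at least 1 was found in 5 of the 397 genes (1.26%), which were Tbx3, Gm40363 (1.12), Gm40364 (1.11), Gm40367 (1.07) and Gm51571 (1.01). A ratio as high as that of Tbx3 was found in 1 of the 397 (0.252%), Tbx3 itself. With a minimum of 500 raised bases it was found in 7 of 2163 genes. These comparisons were chosen after the values were seen.

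**Figure D4:**
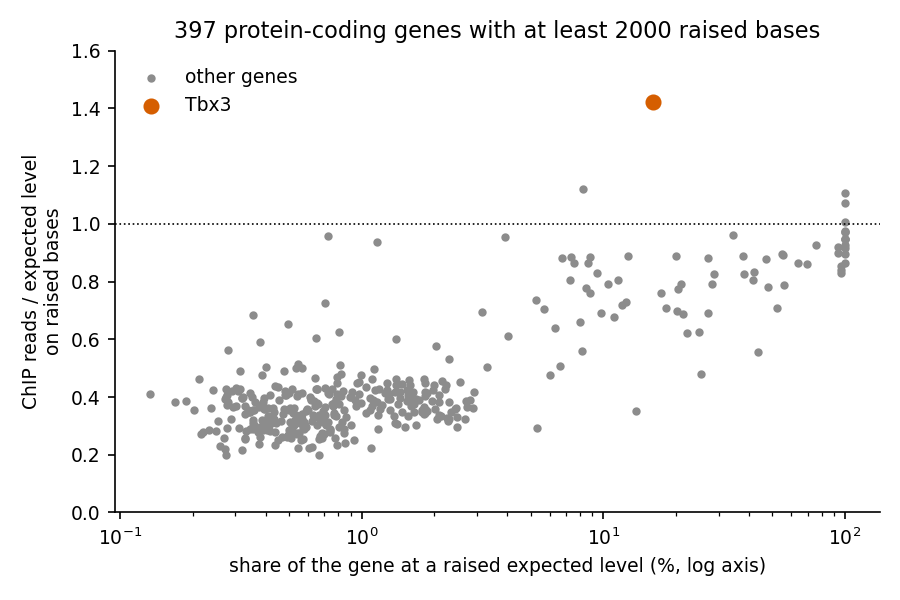
Ratio of ChIP reads to the expected level on raised bases (vertical axis) against the share of the gene that is raised (horizontal axis, percent, log scale) for 397 protein-coding genes with at least 2000 raised bases. Tbx3 lies at 16.1% and 1.42, above all other genes plotted, of which 4 reach a ratio of 1.

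The 5 protein-coding genes with at least 5 blocks and the raised share nearest to that of Tbx3 were Sprr2a3, Gm8127, Ifit3, Usp17le and Gm7609. Their raised shares were 15.3 to 17.3%, and their expected level on raised bases averaged 8.19 to 9.93 reads, below the 12.5 reads of Tbx3. The ratios on raised bases were 0.887, 0.615, 0.536, 0.827 and 0.760 in that order, all under 1. Outside the raised bases their pileups averaged 3.32 to 4.79 reads, compared with 1.80 in Tbx3. Several of them, such as Sprr2a3, a small proline-rich protein gene, and Usp17le, a deubiquitinase gene, belong to families of near-identical copies. Reads are placed with less certainty in such families, and the part of this in the values here was not tested.

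Tbx3os1, a long noncoding RNA gene that overlaps the low end of Tbx3, had 170 raised bases over 60256 bp and a mean pileup of 1.34 reads. Its end score of 4.74 is the summit of Tbx3 block 1, which falls within 1 kb of its end. Tbx3os2, on the other side, had 0 raised bases and a mean pileup of 0.828 reads. Beside Tbx5, Gm42017 had 127 raised bases, 5.08% of its 2499 bp. Gm5563 lies inside Tbx5. Its 38 raised bases, or 0.143%, are block 1 of Tbx5 at chr5:119810542-119810579 and are already counted there. Beside Tbx2, Bcas3 had 1638 raised bases, 0.346% of its 472949 bp.

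The other T-box genes gave end scores like those of the subfamily. Of 13 genes outside it, 0 had an end score of at least 5, a level reached by 3.60% of protein-coding genes, and 2 had at least 3, a level reached by 29.0%. Those 2 were T, the founding member of the family that acts in mesoderm formation, at 3.02, and Tbx22, a gene of palate development, at 4.31. Their median was 1.90, and no called region lay within 50 kb of any of them, compared with 1.43% of protein-coding genes that had one. With a score cutoff of 3, Tbx10 and Mga each had 1 (6.57% of protein-coding genes), and with a minimum length of 100 bp Tbx10 had 1 (5.55%). Raised bases were found in 8 of the 13, with at most 298 in a gene, and in 60.9% of protein-coding genes. Scores of at least 5 inside the gene were not particular to Tbx3 in the family. Mga reached 5.75, and Tbx15 and Tbx20 each reached 5.01, all in genes longer than Tbx3. In Tbx1 and 50 kb around it the highest score was 7.68, above the 7.10 of the Tbx3 window.

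**Figure D5:**
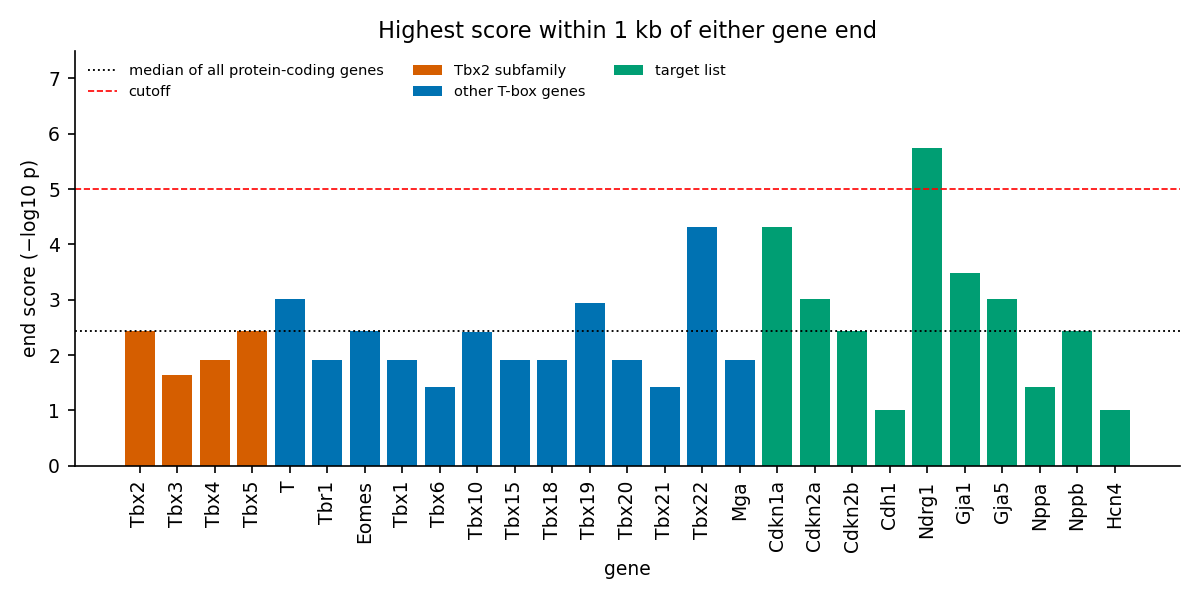
End score (−log10 p, vertical axis) of the 4 Tbx2 subfamily genes, 13 other T-box genes and 10 genes described as targets of TBX2, TBX3 or TBX5, 1 bar per gene. The dotted line is the median of all protein-coding genes, 2.44, and the dashed line the cutoff of 5, which Ndrg1 alone passes at 5.75.

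Of 10 genes described elsewhere as targets of TBX2, TBX3 or TBX5, 1 had an end score of at least 5 and 5 had at least 3, with a median of 2.73. Over all protein-coding genes the shares were 3.60% and 29.0%, and the median was 2.44. These 10 are what is reported here of a longer list chosen with earlier results of these data known, so nothing is read from the difference. The highest was Ndrg1, a stress-responsive growth suppressor gene, at 5.75. Among the cell cycle inhibitors, Cdkn1a had 4.31, Cdkn2a 3.02 and Cdkn2b 2.44. Of the genes expressed in the heart, the connexins Gja1 and Gja5 had 3.48 and 3.02, while Hcn4, a pacemaker channel gene, and Nppa, a natriuretic peptide gene, had 0.999 and 1.42. Nppb, another natriuretic peptide gene, had 2.44. Cdh1, the adhesion protein E-cadherin, had 0.999. No called region lay within 50 kb of any of the 10, as 1.43% of protein-coding genes had one, and the most raised bases in one of them were 280.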

How the data were processed

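TBX3 ChIP-Seq was analysed from 2 Input and 2 TBX3 ChIP libraries of mouse primary hepatocytes. The submitters' processing notes name mm10, Bowtie2, SAMtools and MACS2, with versions not given in the sources used here. The authors deposited a single MACS2 track of −log10 p-values, and neither the libraries that entered it nor how they were combined is stated. There were 0 other columns of per-sample values.

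For each base, the whole number of ChIP reads and the Input-derived expected level that give the score within 1.3e-05 were inferred, with the fewest changes along a chromosome. The expected level is the highest of the genome-wide level and of Input in windows of 150 and 10000 bp, scaled by 0.835. A 1000 bp window was also set, but it gave the expected level at no base of Tbx2, Tbx3, Tbx4, Tbx5 or their flanks. The steps were tested on simulated data.

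Regions were runs scoring 5 or more, with breaks of 30 bp or less bridged and a length of 200 bp or more. Shares have Wilson intervals, and ratios have exact binomial intervals of read counts (95%). No test was run, because the track gives no value per replicate. Reads were taken as counted singly, and counting each read pair once was an alternative. The track does not show which reads are pairs, so that alternative divided counts by 2, rounded down. For scores the expected level was also divided by 2. Alternatives concerned cutoffs, windows, gaps and thresholds.

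Genes named are the 4 members, 13 other T-box genes, 10 target genes, neighbours within 50 kb, E2f7 and E2f8, the 5 genes with the raised share nearest to Tbx3 and, chosen after their values were seen, the genes with a ratio of at least 1. The target list was longer, its other genes are not reported here, and its counts are over these 10. Members and lists were chosen with earlier results of these data known. Scripts ran in Python 3.11.15 with scipy 1.17.1 and pandas 2.3.3 for tables and intervals, numba 0.67.0 and numpy 2.4.6 for the inference, and matplotlib 3.10.9 for plots.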

Additional observations from a re-analysis of the deposited data

How the results depend on the processing

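Of 78 values under alternatives, 44 stayed the same and 34 moved, where a count may differ by up to 1.5 times, a share or ratio must stay within its 95% interval and a score must stay equal. Mean scores and scores from counts divided by 2 are other measures than the highest score. This rule therefore counted them as moved in any case. No paired analysis was possible because the track gives no value per sample. For the same reason no library could be left out. The comparison of exons with introns, with its alternatives, was not run because no exon positions were at hand. At a score cutoff of 3 or 10, with breaks of up to 100 bp bridged and with each read pair counted once, called regions stayed at 0 for all 4 genes, while the regions in the whole track went from 125 to 773, 29, 170 and 42. With a minimum length of 100 bp Tbx3 had 1 called region, as 5.55% of protein-coding genes had any, and the track had 640. End windows of 2 kb took in block 7 and raised the Tbx3 end score to 7.10. The mean score at the higher end was 0.425 at Tbx2, 0.297 at Tbx3, 0.407 at Tbx4 and 0.547 at Tbx5. The highest score of the locus, with each read pair counted once, was 2.09, 4.14, 2.73 and 2.79 in that order, and with a flank of 20 kb it was 3.02 at Tbx2 and 3.65 at Tbx5.

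With raised bases set at 2 times the genome-wide level, Tbx2 had 543 bases in 8 blocks, Tbx4 had 2225 in 38 and Tbx5 had 3871 in 64, and at 4 times each had 0 bases in 0 blocks. Tbx3 stayed within 1.5 times its values in both. Over all annotated genes the share with an end score as high was 46.4% for Tbx2, 75.05% for Tbx3, 70.9% for Tbx4 and 46.4% for Tbx5, and the share with as high a raised share was 16.3%, 0.615%, 13.8% and 30.9%. The ratio over the Tbx3 blocks was 1.46 as a median over bases and 1.296 with 150 bp added on each side. The interval of the ratio lay above 1 in 0 of the 7 blocks with each read pair counted once, compared with 3 otherwise. That alternative, the added 150 bp and the minima of raised bases were chosen after seeing the data. The median ratio of genes with at least 2000 raised bases was 0.886 where the expected level was as high as at Tbx3, also chosen after seeing the data. The share with as high a ratio was 0.395% with at least 1000 raised bases and 0.324% with at least 500.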
